A study of Homo sapiens with 12 samples.

Results

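EP300, CREBBP, KAT2A, KAT2B, TAF12, SIN3A, PIAS1, KMT2A, MEN1 and HIPK2 are genes of coactivators, corepressors and modifying enzymes that work with MYB, a transcription factor of hematopoietic progenitors. They were chosen by name and by the known roles of their products, with earlier results of these data known. They are 10 of the 60658 genes in the deposited table, and all 10 are among the 13393 genes tested, which had at least 1 FPKM (fragments per kilobase of transcript, scaled to each library's mapped fragments) in at least 3 of 12 libraries. The cells are K-562, a human erythroleukemia line, in 4 groups of 3 libraries, with RNA taken 24 hours after siRNA transfection. D152V_Rescue is a stable line carrying 3xTY-D152V, a tagged MYB named for an amino acid substitution in its DNA-binding domain, that received the MYB siRNA si2992. MYB-WT_Rescue is a stable line carrying the tagged construct 3xTY-hcM and received the same siRNA. MYB_KnockDown is the 3xTY1 line, which has the tag without MYB, treated with si2992. siRNA_Control is that 3xTY1 line given a siGENOME non-targeting control siRNA. All lines were kept under G418. Each rescue is a separate stable line, the sources used here do not say whether a clone or a pool, and the line and the form of MYB cannot be told apart. In bulk RNA, fewer cells with a transcript and less transcript per cell cannot be told apart either.

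EP300 and CREBBP are paralogous histone acetyltransferases whose KIX domain binds the activation domain of MYB, and this contact recruits acetylation to MYB target genes. KAT2A and KAT2B are the alternative acetyltransferase subunits of the SAGA and ATAC coactivator complexes, and TAF12 is a histone-fold protein shared by SAGA and the general factor TFIID. SIN3A is the scaffold of a histone deacetylase complex, PIAS1 is a SUMO ligase, KMT2A is a histone H3 methyltransferase held at its target genes with menin, the product of MEN1, and HIPK2 is a nuclear kinase reported to act on MYB.

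MYB itself was measured first, since it checks the label of the knockdown libraries. It stood at 86.6, 86.2 and 100 FPKM in the D152V rescue, 132, 125 and 115 FPKM in the wild-type rescue, and 26.1, 32.9 and 31.5 FPKM in the knockdown, against 124, 132 and 104 FPKM in control libraries (replicates 1, 2 and 3, the order used throughout). The 3 knockdown libraries lay below all others. Introduced and endogenous MYB share 1 value per gene. The D152V rescue held less MYB than the wild-type rescue, a difference of -0.44 on the log2(FPKM + 1) scale used for all log2 values (limma adjusted p = 0.0494), a call that was lost in 16 of 21 other settings and, with the replicate number as a block, had an adjusted p of 0.064.

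Knockdown replicate 1 stood apart from the other libraries. Its FPKM total was 1215578, against 672616 to 798362 in the other 11, and its r over tested genes with knockdown replicates 2 and 3 was 0.93 and 0.929, where every other pair within a group reached at least 0.983. Values also moved with transcript length: the slope of log2(FPKM + 1), relative to each gene's mean, per doubling of length was -0.306 in that library and -0.052 and -0.046 in knockdown replicates 2 and 3, against 0.009 to 0.034 in control libraries. It was 0.033 to 0.044 in the D152V rescue and 0.062 to 0.094 in the wild-type rescue. Many results that rest on the knockdown, though not all, are therefore given also without replicate 1, with each library's length trend removed, or both. These alternatives were singled out after these values were seen. K-562 genes were present, with 10 of 10 erythroid markers at 1 FPKM or more in every library, and of 6 lymphoid markers CD8A and MS4A1 were at 0 in all 12. The summed lymphoid level was 79.6 to 113 FPKM in the D152V rescue, 34.7 to 60.9 in the wild-type rescue, 18.1 to 77.0 in the knockdown and 19.9 to 25.9 in control libraries, most of it CD3D (16.0 to 110 FPKM). The sum of 5 fibroblast and epithelial markers was 32.8 to 38.9, 53.7 to 76.3, 45.9 to 129 and 60.3 to 61.6 FPKM in those groups, most of it EPCAM (32.1 to 126 FPKM). The part of these markers in the results below was not tested.

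The 10 genes covered a wide range of levels. In control libraries TAF12 was highest with a mean of 50.3 FPKM, followed by PIAS1 (38.9), MEN1 (38.7), KAT2A (32.9) and SIN3A (27.0). EP300 (8.84), KMT2A (8.62), CREBBP (8.56), KAT2B (6.84) and HIPK2 (4.20) formed a lower tier. The ranges of PIAS1 and MEN1 overlapped, as did those of KAT2A and SIN3A and of each neighbouring pair from EP300 to KAT2B, so their order within the control group is not resolved. PIAS1 led the D152V rescue (mean 42.5 FPKM) and TAF12 came next at 29.5 FPKM, with the ranges of TAF12, MEN1 and SIN3A overlapping from neighbour to neighbour. In the wild-type rescue and the knockdown TAF12 stayed highest (58.9 and 44.2 FPKM). Over all 12 libraries CREBBP spanned the widest ratio, 8.31-fold between its lowest and highest library, and MEN1 the narrowest, 1.59-fold. The CREBBP ratio rests on knockdown replicate 1 (1.30 FPKM), and its other libraries ran from 5.93 to 10.8 FPKM.

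**Figure D1:**
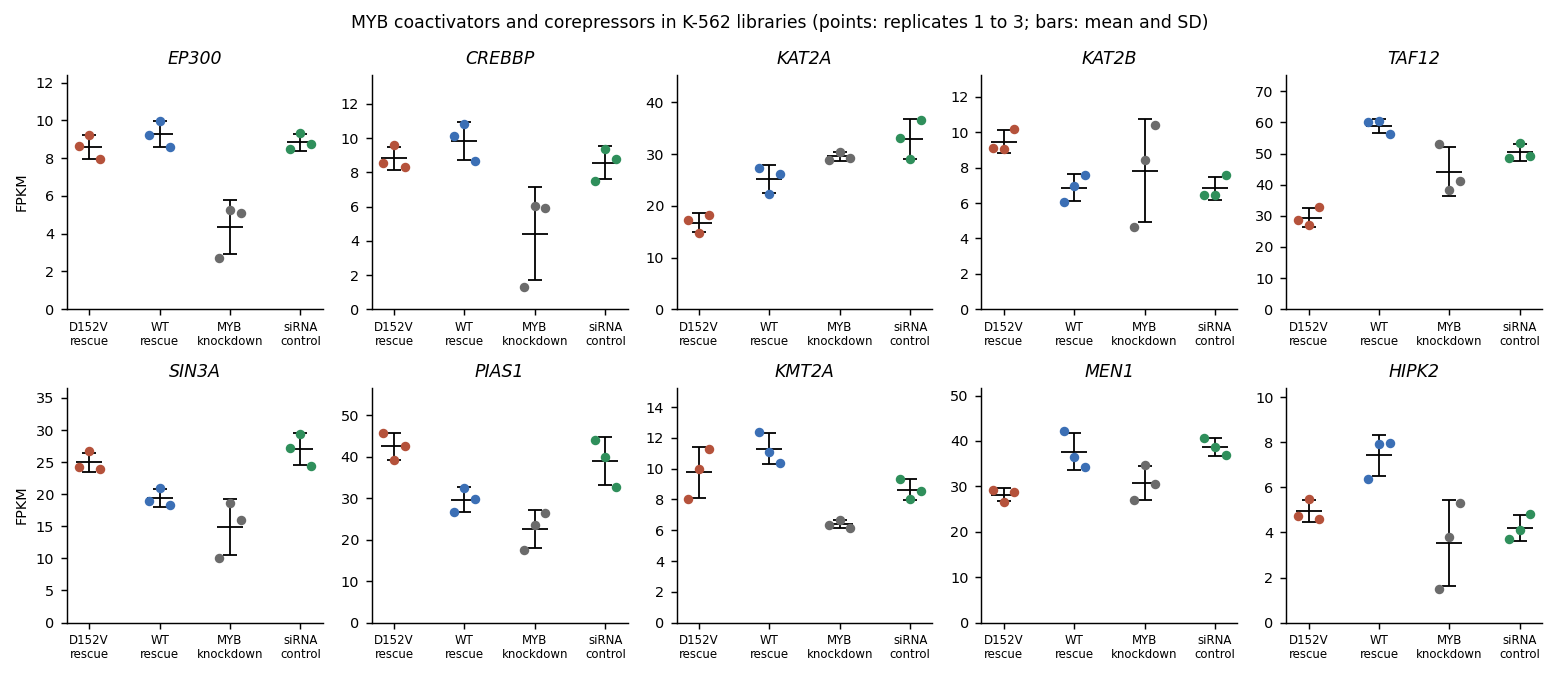
FPKM of the 10 genes in each library (vertical axis, starting at 0) by group, with points for replicates 1 to 3 and bars for the mean and SD. TAF12 in the D152V rescue lies between 27.1 and 32.7 FPKM, below every other library, and CREBBP in knockdown replicate 1 lies at 1.30 FPKM.

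The promoter windows of the genes that passed the test in the knockdown (EP300, SIN3A, PIAS1) or between the rescue lines (TAF12, KAT2A) are shown because MYB binds DNA near promoters. Each is the 250 bases before a RefSeq start on GRCh38.p14, 5′ to 3′ on the gene's strand, with capitals marking any of 4 words of the MYB recognition type (the word CAACTG, its variant CAACGG, the word TAACTG and its variant TAACGG, on both strands, so that reverse complements count). The windows are chr22:41092342-41092591 (plus strand) for EP300, chr15:75455816-75456065 (minus) for SIN3A, chr15:68054065-68054314 (plus) for PIAS1, chr1:28643068-28643317 (minus) for TAF12 and chr17:42121368-42121617 (minus) for KAT2A.
EP300: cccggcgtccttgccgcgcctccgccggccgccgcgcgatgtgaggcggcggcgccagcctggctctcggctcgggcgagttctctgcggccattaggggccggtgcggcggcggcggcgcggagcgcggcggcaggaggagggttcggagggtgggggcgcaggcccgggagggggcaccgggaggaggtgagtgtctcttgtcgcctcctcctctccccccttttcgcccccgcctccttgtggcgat
SIN3A: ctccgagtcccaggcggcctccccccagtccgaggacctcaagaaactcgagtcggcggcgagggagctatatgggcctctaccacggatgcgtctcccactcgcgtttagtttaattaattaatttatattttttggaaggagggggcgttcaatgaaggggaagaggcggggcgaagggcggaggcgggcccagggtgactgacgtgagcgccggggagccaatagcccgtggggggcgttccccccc
PIAS1: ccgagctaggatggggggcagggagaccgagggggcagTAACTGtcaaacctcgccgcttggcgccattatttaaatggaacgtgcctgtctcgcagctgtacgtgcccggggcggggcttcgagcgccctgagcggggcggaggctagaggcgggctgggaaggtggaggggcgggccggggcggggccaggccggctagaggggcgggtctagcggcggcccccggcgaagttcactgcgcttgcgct
TAF12: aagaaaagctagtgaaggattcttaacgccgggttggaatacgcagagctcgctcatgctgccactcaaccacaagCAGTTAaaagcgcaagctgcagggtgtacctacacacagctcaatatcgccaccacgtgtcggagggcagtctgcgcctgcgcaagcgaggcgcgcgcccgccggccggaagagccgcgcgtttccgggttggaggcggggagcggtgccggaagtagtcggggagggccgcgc
KAT2A: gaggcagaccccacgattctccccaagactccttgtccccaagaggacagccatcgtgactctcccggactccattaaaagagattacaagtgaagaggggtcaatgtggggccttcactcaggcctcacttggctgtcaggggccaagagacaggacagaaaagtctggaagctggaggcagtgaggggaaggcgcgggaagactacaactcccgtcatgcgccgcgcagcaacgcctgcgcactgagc
PIAS1 holds TAACTG on its own strand, and TAF12 holds the same word on the other strand, at a start inside the annotated gene. EP300, SIN3A and KAT2A hold none of the 4 words in these windows. Of the 9 genes with an entry in the promoter table, 2 had a match, as did 5825 of all 27305 genes (21.3%), and a match describes letters only.

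The first comparison sets the MYB siRNA against the control siRNA within the 3xTY1 line. EP300, SIN3A and PIAS1 fell, and no other of the 10 genes passed the test. The acetyltransferase EP300 (ENSG00000100393; GRCh38 chromosome 22, 41092592 to 41180077, protein coding) was at 2.69, 5.28 and 5.07 FPKM in the knockdown, against 8.46, 9.33 and 8.73 FPKM in control libraries. All 3 knockdown values lay below all control values, as in 21.3% of all tested genes, with the lowest in replicate 1. Its mean was 49.2% of control, a log2 change of -0.92 (SE 0.18, limma adjusted p = 0.0155). Without knockdown replicate 1 the change was -0.67 (limma adjusted p = 0.00168), and with the length trend removed it was -0.63 (limma adjusted p = 0.0126).

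The corepressor scaffold SIN3A (ENSG00000169375; chromosome 15, 75369379 to 75455815) was at 10.1, 18.7 and 15.9 FPKM in the knockdown, against 27.2, 29.4 and 24.4 FPKM in control libraries. Its groups did not overlap either, and the log2 change was -0.85 (SE 0.18, limma adjusted p = 0.0195), or -0.61 without replicate 1 and -0.58 with the length trend removed. The SUMO ligase PIAS1 (ENSG00000033800; chromosome 15, 68054315 to 68193847) was at 17.5, 23.5 and 26.5 FPKM in the knockdown, against 44.2, 39.9 and 32.7 FPKM in control libraries. PIAS1 was lower in every knockdown library, with a log2 change of -0.77 (SE 0.16, limma adjusted p = 0.018), or -0.61 without replicate 1 and -0.49 with the length trend removed. All 3 genes passed the test in 18 of 21 other settings. They missed it without control replicate 1 (limma adjusted p from 0.0635 to 0.0894), without control replicate 2 (0.0707 to 0.084) and with only the 6 compared libraries in the fit (0.167 to 0.171), where 16 of all genes passed.

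CREBBP, the paralogue of EP300 (ENSG00000005339; chromosome 16, 3725054 to 3880713), did not pass the test. It was at 1.30, 6.04 and 5.93 FPKM in the knockdown, against 7.51, 9.37 and 8.80 FPKM in control libraries. The groups did not overlap, but replicate 1 lay far below the other knockdown libraries, and the log2 change of -0.98 carried an SE of 0.34 (limma adjusted p = 0.0813). Without that library the change was -0.45 and passed the test (limma adjusted p = 0.024), as it did without replicate 2 or 3 (-1.26 and -1.24, limma adjusted p = 0.0357 and 0.0386), while with the length trend removed it was -0.70 and did not (limma adjusted p = 0.11). EP300 and CREBBP were not tested against each other, and their intervals overlap (-1.32 to -0.52 for EP300 and -1.73 to -0.23 for CREBBP).

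The other genes missed the test in the knockdown. KMT2A, a histone methyltransferase (ENSG00000118058; chromosome 11, 118436492 to 118526832), was at 6.34, 6.67 and 6.16 FPKM in the knockdown, against 9.35, 8.01 and 8.52 FPKM in control libraries, a log2 difference of -0.38 (limma adjusted p = 0.0871). Its partner MEN1 (ENSG00000133895; chromosome 11, 64803516 to 64811294) was at 27.0, 34.6 and 30.6 FPKM in the knockdown, against 40.7, 38.6 and 36.8 FPKM in control libraries, a log2 difference of -0.33 (limma adjusted p = 0.0929). In neither gene did the groups overlap, as in 21.3% of all tested genes with the knockdown lower, and both differences missed the threshold. KMT2A was at -0.37 without knockdown replicate 1 (limma adjusted p = 0.0744) and -0.11 with the length trend removed (limma adjusted p = 0.628). MEN1 was at -0.24 (limma adjusted p = 0.11) and -0.29 (limma adjusted p = 0.143) in those settings. MEN1 passed without knockdown replicate 2 (-0.42, limma adjusted p = 0.0453). The kinase HIPK2 (ENSG00000064393; chromosome 7, 139561570 to 139777998) was at 1.49, 3.79 and 5.31 FPKM in the knockdown, against 3.69, 4.10 and 4.82 FPKM in control libraries, with the knockdown libraries on both sides of the control range.

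KAT2A (ENSG00000108773; chromosome 17, 42113111 to 42121367) was at 28.9, 30.5 and 29.3 FPKM in the knockdown, against 33.2, 29.0 and 36.6 FPKM in control libraries. KAT2B (ENSG00000114166; chromosome 3, 20040446 to 20154404) was at 4.66, 8.43 and 10.4 FPKM in the knockdown, against 6.48, 6.44 and 7.60 FPKM in control libraries, and TAF12 (ENSG00000120656; chromosome 1, 28602850 to 28648269) at 53.1, 38.4 and 41.1 FPKM, against 48.6, 53.3 and 49.1 FPKM. These 3 genes overlapped between the groups, and in KAT2B knockdown replicate 1 lay below the control libraries and the other knockdown libraries above them. Without that library KAT2B was called higher (0.41, limma adjusted p = 0.0427) and TAF12 lower (-0.33, limma adjusted p = 0.0227), and with the length trend removed TAF12 was called lower (-0.46, limma adjusted p = 0.0195).

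In all, 0 of the 10 genes were called higher and 3 lower in the knockdown, where 3.94% and 7.38% of all tested genes were called higher and lower. The higher share of all called genes was 34.8% in that fit, 46.9% after median-ratio scaling and 45.5% after quantile normalization, with 3 of the 10 genes called lower under each. The median log2 difference was -0.35 over the 10 genes and -0.03 over all tested genes. Transcript length belongs beside that count. EP300 (8779 bases), CREBBP (10790), SIN3A (6723), PIAS1 (7980), KMT2A (16600) and HIPK2 (15329) have canonical transcripts of at least 5000 bases, and over all 2854 such genes the median was -0.25 with 13.2% called lower. Among 1824 genes under 1000 bases the median was 0.32 with 10.2% called higher. With the length trend removed 0 of the 10 genes were higher and 4 lower (EP300, SIN3A, PIAS1 and TAF12), where 4.59% and 5.42% of all genes were. Without knockdown replicate 1 the counts were 1 higher (KAT2B) and 5 lower (EP300, CREBBP, SIN3A, PIAS1 and TAF12), where 7.26% and 12.9% of all genes were.

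**Figure D2:**
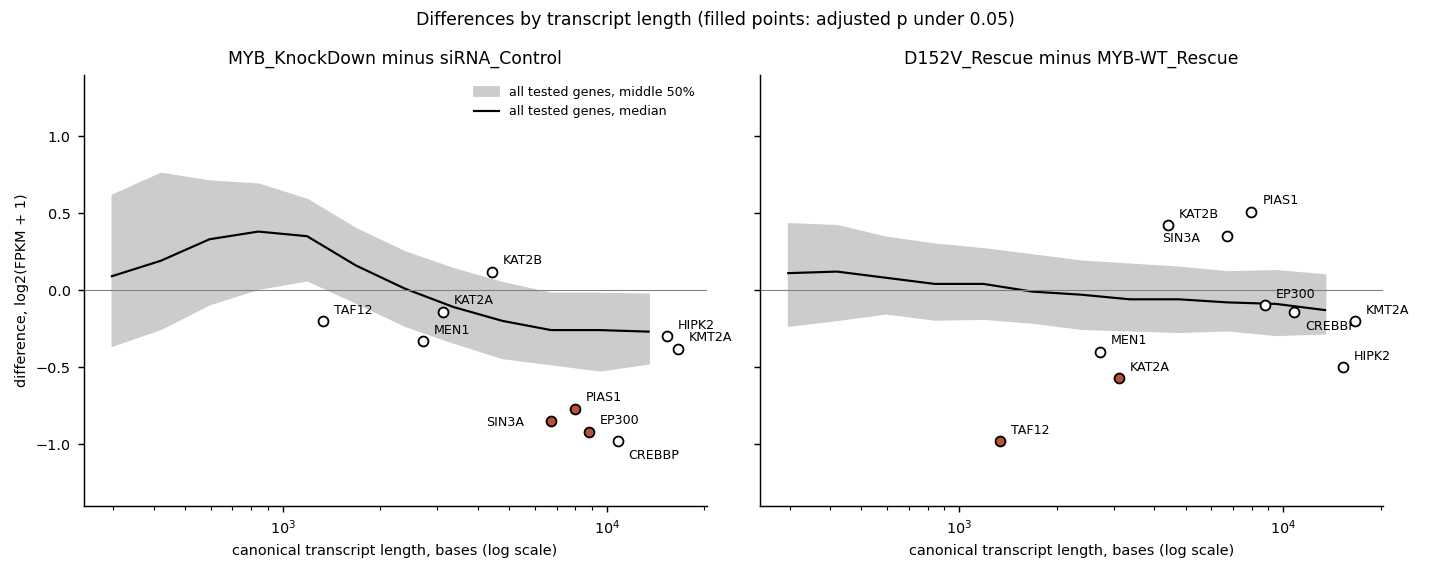
Difference in log2(FPKM + 1) (vertical axis) against canonical transcript length in bases (horizontal log axis), for the knockdown minus control and the D152V rescue minus the wild-type rescue, with the 10 genes as points (filled where adjusted p is under 0.05) and the median and middle 50% of all tested genes as line and band. In the knockdown the median falls with length and EP300, SIN3A, PIAS1 and CREBBP lie below the band, while TAF12 and KAT2A lie below it between the rescue lines.

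Each rescue line was then compared with the knockdown. Both comparisons share the 3 knockdown libraries, as does the comparison of knockdown and control, so the values are given side by side. EP300 was at 8.62, 9.20 and 7.94 FPKM in the D152V rescue and 9.25, 9.99 and 8.59 FPKM in the wild-type rescue. It was called higher than in the knockdown in both lines, by 0.88 (limma adjusted p = 0.00761) and 0.98 (limma adjusted p = 0.00245), and by 0.63 and 0.73 without knockdown replicate 1. CREBBP was at 8.55, 9.60 and 8.34 FPKM in the D152V rescue and 10.1, 10.8 and 8.64 FPKM in the wild-type rescue, and it was called higher by 1.03 (limma adjusted p = 0.0479) and 1.17 (limma adjusted p = 0.0214). These differences of CREBBP were 0.49 and 0.63 without knockdown replicate 1, and with the length trend removed 0.70 (limma adjusted p = 0.0799) and 0.76 (limma adjusted p = 0.0476). The D152V call of CREBBP held in 6 of 21 other settings, where its adjusted p ran from 0.0103 to 0.189, and the wild-type call in 17 of 21, with losses without wild-type replicate 1 (limma adjusted p = 0.0582) or 2 (limma adjusted p = 0.071) among them. The D152V call was lost without any 1 control or rescue library.

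SIN3A and PIAS1 passed the test against the knockdown in the D152V rescue and missed it in the wild-type rescue. SIN3A was at 24.2, 26.7 and 24.0 FPKM in the D152V rescue and 19.0, 20.9 and 18.3 FPKM in the wild-type rescue, differences from the knockdown of 0.75 (limma adjusted p = 0.015) and 0.40 (limma adjusted p = 0.107). PIAS1 was at 45.8, 39.3 and 42.6 FPKM in the D152V rescue and 26.7, 32.6 and 29.8 FPKM in the wild-type rescue, differences of 0.91 (limma adjusted p = 0.00373) and 0.40 (limma adjusted p = 0.0731). In both genes every D152V library lay above every wild-type rescue library, and with the length trend removed the wild-type differences from the knockdown were 0.06 and 0.03. The D152V call of SIN3A was lost without D152V replicate 2 (limma adjusted p = 0.0595), and in the wild-type rescue SIN3A passed without knockdown replicate 2 (limma adjusted p = 0.0251) and PIAS1 without knockdown replicate 3 (limma adjusted p = 0.0303). The direct test between the 2 lines is given below.

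KMT2A was called higher in both lines, and HIPK2 in the wild-type rescue. KMT2A was at 8.01, 10.0 and 11.3 FPKM in the D152V rescue and 12.4, 11.1 and 10.4 FPKM in the wild-type rescue, differences from the knockdown of 0.53 (limma adjusted p = 0.0179) and 0.73 (limma adjusted p = 0.00232). With the length trend removed these were 0.17 (limma adjusted p = 0.384) and 0.29 (limma adjusted p = 0.13), so neither call remained. With knockdown replicate 1 also left out they were 0.29 (limma adjusted p = 0.119) and 0.40 (limma adjusted p = 0.0291), so the wild-type call held. The D152V call was also lost without D152V replicate 2 or 3 (limma adjusted p = 0.0645 and 0.0692). HIPK2 was at 4.74, 5.49 and 4.62 FPKM in the D152V rescue and 6.36, 7.93 and 7.98 FPKM in the wild-type rescue, differences of 0.49 (limma adjusted p = 0.193) and 0.99 (limma adjusted p = 0.016). The wild-type value of HIPK2 was 0.61 without knockdown replicate 1 (limma adjusted p = 0.0079) and 0.56 with the length trend removed (limma adjusted p = 0.0615), and it missed the test without wild-type replicate 2 (limma adjusted p = 0.056). HIPK2 passed in the D152V rescue without knockdown replicate 3 (0.78, limma adjusted p = 0.0344). Its D152V value was 0.11 without knockdown replicate 1 (limma adjusted p = 0.618) and 0.14 with the length trend removed (limma adjusted p = 0.656). With both changes the D152V value of HIPK2 was -0.12 (limma adjusted p = 0.556) and its wild-type value 0.29 (limma adjusted p = 0.132).

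TAF12 and KAT2A went the other way in the D152V rescue, where both were lower than in the knockdown. TAF12 was at 28.5, 27.1 and 32.7 FPKM in the D152V rescue and 60.0, 60.3 and 56.4 FPKM in the wild-type rescue. Against the knockdown it was called lower in the D152V rescue (-0.56, limma adjusted p = 0.0123; -0.42 without replicate 1). It was called higher in the wild-type rescue (a difference of 0.42, limma adjusted p = 0.0271; 0.56 without replicate 1), a call that held in 16 of 21 other settings and was lost without knockdown replicate 2 or 3 or wild-type replicate 1 or 2 (limma adjusted p from 0.0637 to 0.0797). The D152V call was lost without D152V replicate 2 (limma adjusted p = 0.0549). With the length trend removed the D152V value was -0.23 and missed the test (limma adjusted p = 0.117). With knockdown replicate 1 also left out it was -0.29 and passed (limma adjusted p = 0.0292). KAT2A was at 17.2, 14.7 and 18.3 FPKM in the D152V rescue and 27.4, 22.2 and 26.2 FPKM in the wild-type rescue, differences from the knockdown of -0.79 (limma adjusted p = 0.00221) and -0.22 (limma adjusted p = 0.186). MEN1 and KAT2B did not pass against the knockdown in either line, although in the wild-type rescue KAT2B was called lower once knockdown replicate 1 was left out (-0.40, limma adjusted p = 0.022) and MEN1 higher once knockdown replicate 2 was (0.38, limma adjusted p = 0.0373).

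In all, 5 of the 10 genes were called higher and 2 lower in the D152V rescue against the knockdown, where 13% and 12% of all tested genes were. In the wild-type rescue 5 were called higher and 0 lower, where 20.6% and 16.9% of all genes were. Of genes with transcripts of at least 5000 bases, 22.4% were called higher in the D152V rescue and 37.1% in the wild-type rescue. With the length trend removed the D152V count was 3 higher and 1 lower, where 11.6% and 11.6% of all genes were, and the wild-type count 3 higher and 0 lower, where 17.1% and 16.7% were.

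**Figure D3:**
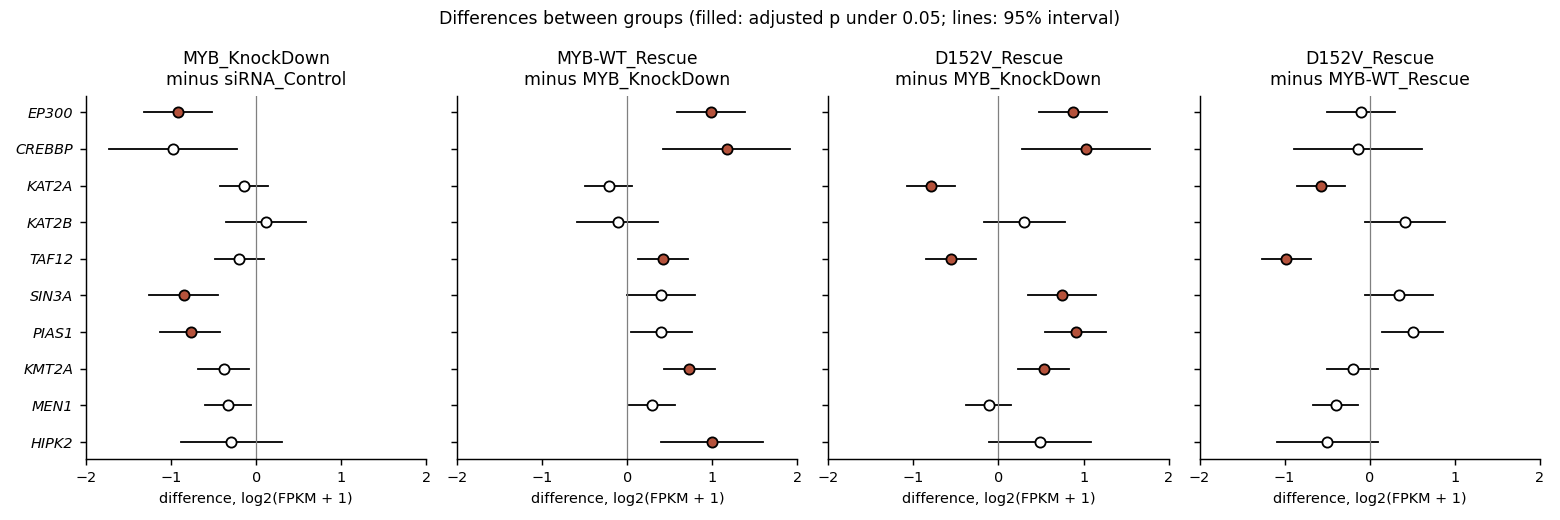
Differences in log2(FPKM + 1) of the 10 genes in 4 comparisons (horizontal axis; points filled where the limma adjusted p is under 0.05, lines the 95% interval). EP300 lies at -0.92 in the knockdown and at 0.88 and 0.98 in the D152V and wild-type rescues against it, and TAF12 lies at -0.98 between the D152V and wild-type rescues.

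The comparison of the D152V rescue with the wild-type rescue asks which transcripts differ between cells carrying the substituted and the unsubstituted MYB, and it uses no knockdown library except for the shared estimate of spread. TAF12 and KAT2A were lower in the D152V rescue. For TAF12 the D152V mean was 29.5 ± 2.92 FPKM and the wild-type mean 58.9 ± 2.16 FPKM (SD, n = 3 each), a log2 difference of -0.98 (SE 0.13, 95% interval -1.27 to -0.69, limma adjusted p = 0.000477). Every D152V library held less TAF12 than any other library of the study. The call held in all 21 other settings, with differences from -1.06 to -0.92.

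For KAT2A the D152V mean was 16.8 ± 1.85 FPKM and the wild-type mean 25.3 ± 2.72 FPKM (SD, n = 3 each), a log2 difference of -0.57 (SE 0.13, 95% interval -0.85 to -0.29, limma adjusted p = 0.0132). The highest D152V library (18.3 FPKM) lay below the lowest wild-type library (22.2 FPKM). The call was lost without wild-type replicate 1 (limma adjusted p = 0.0615) and without D152V replicate 2 (limma adjusted p = 0.0677). KAT2B, the alternative subunit to KAT2A, stood at 9.11, 9.07 and 10.2 FPKM in the D152V rescue, against 6.04, 6.97 and 7.56 FPKM in the wild-type rescue, a difference of 0.42 in the other direction that missed the test (limma adjusted p = 0.268).

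EP300 differed between the rescue lines by -0.10 (95% interval -0.50 to 0.30, limma adjusted p = 0.818) and CREBBP by -0.14 (-0.89 to 0.61, limma adjusted p = 0.869), and in both genes the libraries of the lines overlapped. MEN1 was at 29.1, 26.6 and 28.8 FPKM in the D152V rescue, against 42.3, 36.5 and 34.2 FPKM in the wild-type rescue, a difference of -0.40 just outside the threshold (limma adjusted p = 0.0514). PIAS1 differed by 0.51 (limma adjusted p = 0.0688), SIN3A by 0.35 (limma adjusted p = 0.274), HIPK2 by -0.50 (limma adjusted p = 0.297) and KMT2A by -0.20 (limma adjusted p = 0.428). The D152V libraries all lay above the wild-type ones in PIAS1, SIN3A and KAT2B and below them in HIPK2, MEN1, TAF12 and KAT2A, 3 and 4 of the 10 genes, where 18.3% and 24.3% of all tested genes did so.

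In this comparison 0 of the 10 genes were called higher and 2 lower, where 5.96% and 6.19% of all tested genes were. These counts depended on the shared spread. With knockdown replicate 1 left out of the fit, 3 were called higher (KAT2B, SIN3A and PIAS1, limma adjusted p = 0.0165, 0.0165 and 0.0065) and 4 lower (TAF12, KAT2A, MEN1 and HIPK2, limma adjusted p = 8.41e-06, 0.00282, 0.00559 and 0.0183), where 13.6% and 17.8% of all genes were. With only the 6 rescue libraries in the fit the count was likewise 7 of 10, and 24.5% of all genes. With the length trend removed PIAS1 (0.58, limma adjusted p = 0.00916) and SIN3A (0.42, limma adjusted p = 0.039) were called higher beside the lower TAF12 and KAT2A, where 7.55% and 6.97% of all genes were called higher and lower.

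The rescue lines were also set against the control line. TAF12 (-0.76, limma adjusted p = 0.00383) and KAT2A (-0.93, limma adjusted p = 0.000864) were lower in the D152V rescue than in control libraries, both in all 21 other settings. MEN1 was lower as well (-0.44, limma adjusted p = 0.0407), a call that held in 8 of 21 other settings and was lost without any 1 control or D152V library. EP300, CREBBP, SIN3A and PIAS1 differed from control by -0.04, 0.04, -0.11 and 0.13 in that line, with none passing. The count of 0 higher and 3 lower stands beside 4.61% and 4.94% of all genes. In the wild-type rescue 0 of the 10 genes passed in limma, where 5.04% and 4.58% of all genes were called higher and lower. An unadjusted limma p under 0.05 was reached by 5 of the 10 (HIPK2 0.69, KAT2A -0.37, SIN3A -0.46, PIAS1 -0.37 and KMT2A 0.35) and by 3155 of all 13393 genes. Without knockdown replicate 1 those 5 passed, 2 higher and 3 lower, where 13.8% and 15.9% of all genes did.

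Other subunits and pathway genes were counted from lists of complexes, families and pathways related to the 10 genes. In the knockdown against control, 0 of 12 other acetyltransferases passed in either direction. An unadjusted limma p under 0.05 was reached by 4 of the 12 and by 4288 of all 13393 genes. Of 21 other SAGA and ATAC subunits 1 was higher and 1 lower. Without knockdown replicate 1, 3 of the 12 acetyltransferases were lower and 0 higher, and 6 of the 21 subunits were lower and 1 higher, where 12.9% and 7.26% of all genes were. ENY2, a small subunit of the SAGA deubiquitinase module, was at 217, 124 and 142 FPKM in the knockdown, against 81.9, 94.3 and 97.4 FPKM in control libraries (log2 change 0.77, limma adjusted p = 0.025). ZZZ3, an ATAC subunit, was at 8.83, 15.6 and 13.5 FPKM in the knockdown, against 30.3, 30.8 and 25.1 FPKM in control libraries (log2 change -1.15, limma adjusted p = 0.00637). The ENY2 call was lost without any 1 control library.

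Of 14 SUMO pathway genes 7 were lower in the knockdown and 0 higher, with a median of -0.39, and PIAS1 itself is counted apart from them. Of all tested genes 7.38% were lower (12.9% without knockdown replicate 1 and 5.42% with the length trend removed), and of those with transcripts of at least 5000 bases 13.2% were. They were the E1 subunit UBA2, the modifier SUMO3, the ligases PIAS2 and PIAS4 and the proteases SENP1, SENP2 and SENP5. SENP1, which removes SUMO from its substrates, was at 8.75, 15.8 and 16.7 FPKM in the knockdown, against 32.6, 32.4 and 28.4 FPKM in control libraries (log2 change -1.17, limma adjusted p = 0.00755). UBA2 changed by -0.78 (limma adjusted p = 0.0156) and SUMO3 by -0.51 (limma adjusted p = 0.0272). The count of lower SUMO genes was 7 without knockdown replicate 1, where SENP5 was no longer among them, and 5 with the length trend removed. It was 1, 1 and 2 without control replicates 1, 2 and 3, where 142, 154 and 293 of all 13393 genes were lower. The UBA2 and SUMO3 calls were among those lost without control replicate 1 or 2. Of 21 other settings the calls held in 20 for SENP1, 18 for UBA2, 17 for SUMO3 and 16 for SENP2. They held in 10 for PIAS2, 10 for PIAS4 and 5 for SENP5.

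Of 21 SIN3 and NCOR corepressor genes 3 were lower in the knockdown, namely TBL1X (-0.58, limma adjusted p = 0.0142), SAP130 (-0.55, limma adjusted p = 0.035) and TBL1XR1 (-0.53, limma adjusted p = 0.0393). All 3 calls were lost with the length trend removed and without control replicate 1 or 2, and 7 of the 21 were lower without knockdown replicate 1. A further list, the KMT2 list, held 14 tested genes of KMT2 enzymes, their complexes and partners. In it the histone demethylase KDM6A (-0.96, limma adjusted p = 0.0218) and the chromatin tether PSIP1 (-0.58, limma adjusted p = 0.0327) were lower. Both calls were lost without any 1 control library, and that of PSIP1 also with the length trend removed. Of 12 other genes for proteins that bind or modify MYB, MYBBP1A, which binds MYB, was lower (36.7, 37.5 and 34.7 FPKM in the knockdown, against 62.9, 66.9 and 60.2 FPKM in control libraries; log2 change -0.79, limma adjusted p = 0.00373). Of the KMT2 list 3 were lower and 1 higher without knockdown replicate 1, and likewise 3 and 1 of the MYB modifiers. Of all tested genes 12.9% were lower and 7.26% higher in that fit, and 7.38% were lower with all libraries.

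Between the D152V and wild-type rescues the counts of these lists depended on knockdown replicate 1 through the shared spread. With all libraries, in the SIN3 and NCOR list TBL1X (-0.44, limma adjusted p = 0.0279), HDAC1 (-0.47, limma adjusted p = 0.0396) and ARID4A, a SIN3 complex subunit (-0.52, limma adjusted p = 0.0447), were lower and 0 higher. HDAC1, a deacetylase of the SIN3 complex, was at 113, 122 and 134 FPKM in the D152V rescue, against 164, 162 and 185 FPKM in the wild-type rescue. ASH2L, a core subunit of the KMT2 complexes, was higher by 0.49 (limma adjusted p = 0.0457). The calls of TBL1X, HDAC1, ARID4A and ASH2L were each lost without at least 5 of the single rescue libraries, and ARID4A passed in 6 of 21 other settings. No gene of the SAGA and ATAC, acetyltransferase, SUMO or MYB modifier lists passed. An unadjusted limma p under 0.05 was reached by 5 of 21, 1 of 12, 2 of 14 and 2 of 12 of them, and by 3343 of all 13393 genes. With knockdown replicate 1 left out, 2 SIN3 and NCOR genes were called higher and 9 lower, 1 and 6 SAGA and ATAC subunits, and 2 and 2 genes of the KMT2 list. The counts were 1 and 3 for MYB modifiers, 0 and 3 for SUMO genes and 0 and 1 for acetyltransferases. Of all genes 13.6% and 17.8% were called higher and lower in that fit.

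**Figure D4:**
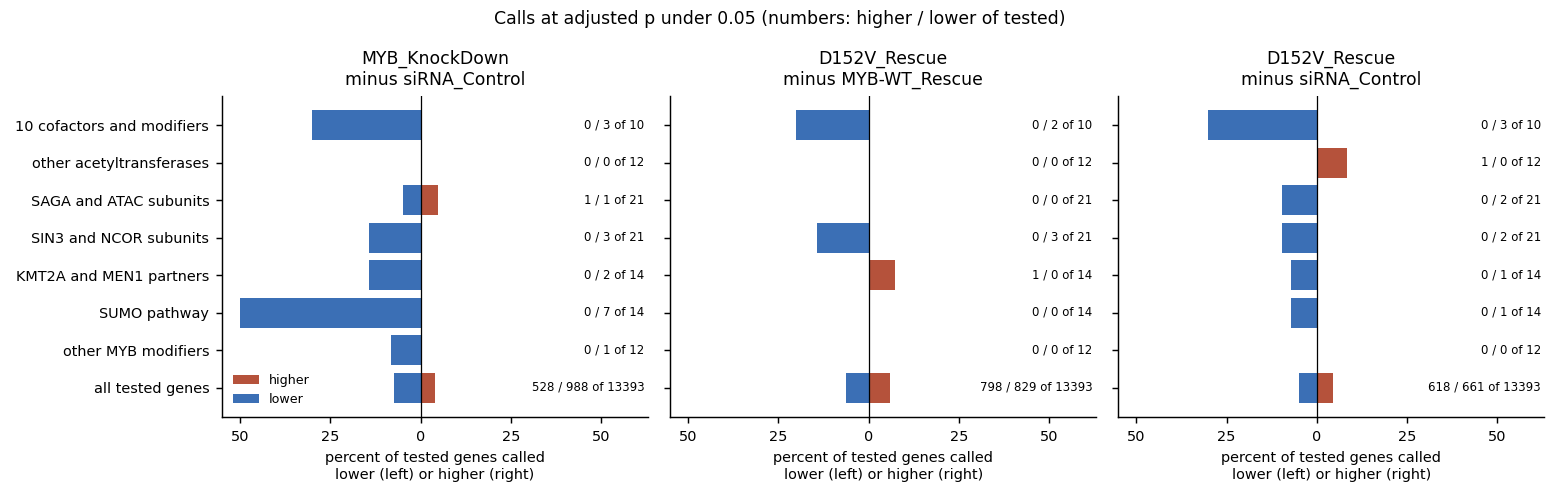
Percent of tested genes called lower (left of 0) or higher (right of 0) at a limma adjusted p under 0.05, for the 10 genes, 6 lists of related genes and all tested genes, in 3 comparisons fitted with all 12 libraries, with the counts printed. The SUMO list has 7 of 14 genes lower in the knockdown, and the SAGA and ATAC list has 0 of 21 called between the D152V and wild-type rescues (7 without knockdown replicate 1). The list drawn as KMT2A and MEN1 partners holds genes of KMT2 enzymes, their complexes and partners.

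Among the 5 genes whose log2(FPKM + 1) most resembled EP300 over the 12 libraries were MCPH1 (Pearson r = 0.995), AP1G1 (0.988), TEX15 (0.987) and ATF6 (0.985). Among the 5 most like CREBBP were DIP2B (0.991), DSG2 (0.990), ANKRD17 (0.990) and SRCAP (0.990). Without knockdown replicate 1 these r were between 0.956 and 0.985 for the genes named beside EP300 and between 0.928 and 0.949 for those named beside CREBBP. The named genes have transcripts of 5697 to 11724 bases. Among the 10 genes the libraries of EP300 and CREBBP moved most closely together (r = 0.96 over 12 libraries, 0.95 over 11), and over 12 libraries SIN3A and PIAS1 came next (0.91, and 0.83 over 11). EP300 and MYB had r = 0.92 over 12 libraries and 0.95 over 11. These r describe 12 libraries in 4 groups that share the group differences above.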

How the data were processed

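Libraries of poly(A) RNA from K-562 lines were made with a stranded TruSeq kit and sequenced as 125-bp paired-end reads, per the labels' protocols and design text, which calls the 3 replicates individual experiments. P-values measure only the spread between these libraries. The authors deposited 1 table of FPKM values. Per the submitters' processing notes the build was GRCh38 and the tools included TopHat2 (2.0.13), Cufflinks (2.2.1), Trimmomatic (0.33) and bcl2fastq (2.17.1.14). Neither the annotation nor the use of strand is known from the sources used here, so reads of overlapping antisense genes cannot be told apart. Read counts could not be recovered, since for genes of low value only a median of 6.6% of ratios between libraries came within 2% of the median of their pair, and depth is unknown.

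Groups came from sample titles. Genes with at least 1 FPKM in at least 3 libraries were tested as log2(FPKM + 1), which understates changes of low genes, with limma 3.58.1 in R 4.3.3: all 12 libraries, a mean per group, a variance trend, 8 residual degrees of freedom, 6 contrasts, two-sided, Benjamini-Hochberg adjusted over all 13393 genes, threshold 0.05. The model was tested on simulated data. Tables and figures used Python 3.11.15, pandas 2.3.3 and matplotlib 3.10.9. Coordinates and promoters are from RefSeq (GRCh38.p14). Transcript lengths are of GENCODE canonical transcripts lifted to GRCh37, used for no coordinates.

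The 10 genes and all lists were chosen with earlier results of these data known. Named genes were the 10 and MYB; up to 3 called genes per list in the knockdown against control and up to 2 between the rescue lines, by smallest adjusted p; and the 5 genes most correlated with EP300 and with CREBBP. Some genes that this rule names, and 1 marker gene, are not reported here. PIAS2, PIAS4, SENP2, SENP5 and ARID4A were named after their values were seen. Replicate numbers may pair the rescue libraries: deviations from the group means of same-numbered libraries correlated weakly, at r = 0.169, 0.153 and 0.233 between the D152V and wild-type rescues. The main fit did not use such a pairing. Alternatives were a pseudocount of 0.1, no filter, quantile normalization, median-ratio scaling, the replicate number as a block, only the 6 compared libraries, leaving out each library, and, added after seeing the data, subtraction of a trend on transcript length from each library, alone, with the block, or over 11 libraries.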

Additional observations from a re-analysis of the deposited data

Results flagged for a closer look

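Between the D152V and wild-type rescues, 2 lines that received the same siRNA, the test of the difference itself passed for the genes given here. TAF12 differed by -0.98 (limma adjusted p = 0.000477) and KAT2A by -0.57 (limma adjusted p = 0.0132). MYB differed by -0.44, TBL1X by -0.44, HDAC1 by -0.47, ARID4A by -0.52 and ASH2L by 0.49. The embryonic globin gene HBE1 differed by 2.05 (limma adjusted p = 0.0263), at 151, 168 and 428 FPKM in the D152V rescue against 47.0, 43.1 and 72.6 FPKM in the wild-type rescue. In alternatives, TAF12 passed in all 21 other settings, KAT2A in 19, HBE1 in 16, TBL1X in 14, ASH2L in 12, HDAC1 in 10, ARID4A in 6 and MYB in 5.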

How the results depend on the processing

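For the 10 genes and MYB, no difference changed sign between the main fit and another setting where either of them passed the test. Some differences that passed in neither did change sign, among them KAT2B and HIPK2 in the knockdown against control. Quantile normalization and median-ratio scaling moved no median by more than 0.04. Leaving out 1 library gave 0 to 6 of the 10 genes called in the knockdown against control (3 with all libraries), 2 to 6 in the wild-type rescue against the knockdown (5), 3 to 8 in the D152V rescue against the knockdown (7), 1 to 7 between the D152V and wild-type rescues (2), 0 to 5 in the wild-type rescue against control (0) and 2 to 4 in the D152V rescue against control (3). Over all genes the ranges were 173 to 2697 (1516 with all libraries), 3194 to 6055 (5031), 1639 to 4389 (3355), 1020 to 4209 (1627), 682 to 3973 (1289) and 725 to 3706 (1279), in that order of comparisons. With only the 6 compared libraries 0, 2, 2, 7, 4 and 4 of the 10 genes passed, and 16, 1689, 548, 3275, 3512 and 3575 of all genes. With the length trend removed 4, 3, 4, 4, 2 and 2 of the 10 passed, with the replicate block added 4, 5, 4, 5, 3 and 2, and over 11 libraries 5, 5, 5, 7, 5 and 4. Of all genes 1341, 4531, 3111, 1944, 1633 and 1621 passed with that trend removed, and 1608, 4889, 3487, 2280, 1904 and 1901 with the block added. Over 11 libraries with that trend removed 2322, 5712, 4006, 4093, 3928 and 3634 of all genes passed. Without a filter 738 genes passed in the knockdown against control. The cause of these shifts was not tested.

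With the replicate number as a block 3, 5, 7, 2, 0 and 2 of the 10 genes passed, and 1712, 5340, 3672, 1871, 1498 and 1499 of all genes. Between the rescue lines the block changed no call among the 10 genes. In the 5 other comparisons same-numbered pairs were not all correlated above 0.1, although every knockdown and control library correlated best with its own number (3 of 3). Read depth is unknown, so no precision from counting can be given, and the low FPKM of HIPK2, KAT2B, KMT2A, CREBBP and EP300 has no counting interval. In the knockdown against control KAT2B ran from -0.10 to 0.51 over the settings and passed as higher in 2 of them (0.41 without knockdown replicate 1 and 0.51 over 11 libraries with the length trend removed), and HIPK2 ran from -0.59 to 0.25 and passed in none.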
